A study of Mus musculus with 34 samples.

Results

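Collagen chain genes were examined in the stromal vascular fraction (SVF) of mouse visceral fat. They were taken as every gene listed in both deposited expression tables whose symbol has the form Col, a type number, the letter a and a chain number, which gave 44 of 32098 genes on 15 chromosomes. The classes held 11 fibrillar chains, 6 basement membrane chains of type IV, 6 chains of type VI, 9 fibril-associated (FACIT) chains, 2 multiplexins, 3 short-chain network chains, 4 transmembrane chains, 1 anchoring fibril chain and 2 others. None was at 0 in all libraries. Chains were tested where 4 libraries of the table for 8 and 20 weeks, or 6 of the table for 34 weeks, reached 1 TPM (transcripts per 1000000). This left 32 chains at 8 and 20 weeks and 28 at 34 weeks, and 12 chains were tested in neither.

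The SVF is the pellet of digested fat after centrifugation, without the floating adipocytes, so each library mixes fibroblasts and progenitors, immune cells, endothelial cells and other cells. The mice were male C57BL/6J animals given a high fat diet (HFD) with 60% of calories from fat, or a control diet (CHOW, D12450B or D12450K), from 6 weeks of age. There were 4 CHOW and 6 HFD libraries after 8 weeks, 5 and 6 after 20 weeks, and 7 and 6 after 34 weeks, which puts the mice at 14, 26 and 40 weeks of age, and all groups shared the strain, the sex and a fast before collection. The labels do not say whether each library is 1 mouse, so p-values measure the spread between these libraries, which may be technical. The fat was digested with a collagenase, an enzyme that acts on collagen protein, and only RNA is reported here.

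Collagens are proteins of 3 chains wound into a triple helix. Fibrillar collagens (types I, III, V and XI) form the fibrils of connective tissue, type IV forms the sheet of the basement membrane, and type VI forms beaded filaments near cell surfaces and is abundant in fat. FACIT collagens sit on fibril surfaces, and multiplexins sit in or near basement membranes. Fibroblasts make most of the fibrillar chains, and excess collagen around adipocytes is a feature of fibrosis in obese fat.

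Expression was measured in TPM, a share of each library that corrects for gene length, so levels of different chains can be compared. TPM keeps no read depth, and depth per library is unknown. Between 13200 and 17213 genes reached 1 TPM per library. Summed marker levels per library ran from 4590.0 to 14763.5 TPM for 12 fibroblast and progenitor genes, from 5161 to 20549.8 TPM for 10 macrophage genes, from 326 to 2373 TPM for 10 endothelial genes and from 7100.0 to 267896 TPM for 6 erythroid genes. RNA of tissues outside the SVF was high in some libraries, with 123060 TPM of seminal vesicle genes in HFD 8 week replicate 3, up to 13316 TPM of germ cell genes in HFD 20 week replicate 5 and up to 20800.5 TPM of adipocyte genes in CHOW 34 week replicate 6. The 34 week table was made apart from the other, so levels at 34 weeks are set beside the earlier ones as values only and no test crosses the tables.

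All chains together made up a mean 0.412% ± 0.1003 (SD, n = 4) of the library on CHOW and 0.596% ± 0.223 (n = 6) on HFD at 8 weeks, 0.358% ± 0.0863 (n = 5) and 0.530% ± 0.149 (n = 6) at 20 weeks, and 0.620% ± 0.277 (n = 7) and 0.463% ± 0.116 (n = 6) at 34 weeks. Single libraries ran from 2065 TPM of collagen in CHOW 20 week replicate 5 to 11832 TPM in CHOW 34 week replicate 4. The HFD mean was the higher at 8 and 20 weeks and the lower at 34 weeks. Fibrillar chains held the largest share in every group, from 45.2% ± 5.29 of collagen TPM on CHOW at 20 weeks to 63.0% ± 11.04 on CHOW at 34 weeks. Basement membrane chains held 16.3% to 21.3% and type VI chains 14.1% to 25.4%, as group means. FACIT chains held 2.24% to 3.61%, and multiplexins 2.67% to 4.43%. In bulk RNA, fewer cells of a type and less RNA per cell cannot be told apart, and this holds for every difference below.

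**Figure D1:**
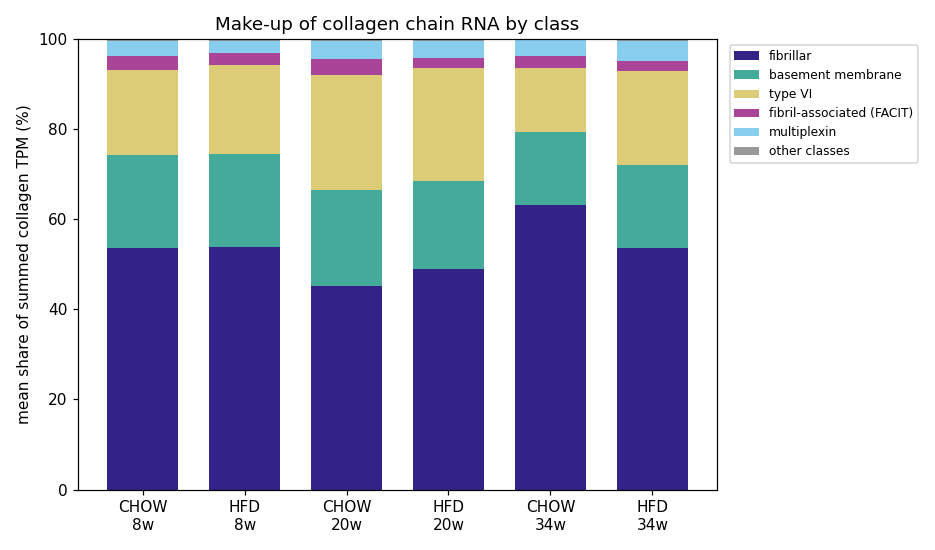
Mean share of summed collagen TPM (%, vertical axis) taken by each class of chain in the 6 groups of diet and weeks (horizontal axis), stacked, with the 4 smallest classes merged as other classes. Fibrillar chains fill 45.2% to 63.0% of each bar, and type VI chains are narrowest on CHOW at 34 weeks (14.1%).

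Col3a1 (type III, partner of type I in soft tissue) was the most abundant chain. Its TPM on CHOW and HFD averaged 1122 ± 592 and 1701 ± 719 at 8 weeks, 693 ± 276 and 1209 ± 424 at 20 weeks, and 2043 ± 1035 and 1205 ± 539.5 at 34 weeks. Col1a2 and Col1a1, the chains of type I, the main fibril collagen, followed within the fibrillar class in the mean over all libraries. Col1a2 averaged 487 ± 130.4 TPM on CHOW and 656 ± 154 TPM on HFD at 20 weeks. Col1a1 stood at 230.4, 206, 236, 243 and 91.6 TPM in the CHOW libraries of 20 weeks, and the HFD libraries ran from 237 over a median of 329 to 506 TPM. Replicate 5 was the lowest CHOW library, and the highest CHOW library lay just above the lowest HFD library, so the groups overlapped. Col5a2, a chain of type V that helps start fibrils, averaged 96.4 ± 22.3 and 143 ± 36.1 TPM at the same time. The 4 most abundant fibrillar chains (Col1a1, Col1a2, Col3a1 and Col5a2) had positive HFD differences at 8 and 20 weeks and negative ones at 34 weeks, in these signs under each scaling tried, and none was called in the limma fit described next. At 20 weeks Col1a1 was called after quantile normalization or median-ratio scaling, and Col1a1 and Col5a2 with the mean of a fibroblast marker list as a covariate.

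HFD against CHOW was tested with limma on log2(TPM + 1), with Benjamini-Hochberg adjustment over all genes tested and a threshold of 0.05. At 20 weeks 4 of 32 tested chains were called (12.5%), beside 14.3% of all 16808 genes tested. Col6a3 and Col8a1 were higher on HFD, beside 9.32% of all genes called higher, and Col4a3 and Col4a6 were lower, beside 4.99% called lower. The share of chains called was near that of all genes. The median log2 difference of the chains was 0.26, beside 0.08 for all genes, which quantile normalization moved to -0.05. With median-ratio scaling 5 of 8 called chains were higher, with quantile normalization 4 of 9 and with sample quality weights 2 of 8. These settings also called more of all 16808 genes, with 3613, 3502 and 5092 called beside 2405. Without replicate 3 or replicate 4 of CHOW the count fell to 2, beside 1364 of 16736 and 1255 of 16731 genes called. Without HFD replicates 3, 4 and 5, which held the most germ cell RNA, the count fell to 1 (Col8a1), beside 958 of 16117 genes. The calls over all genes fell in these fits too.

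**Figure D2:**
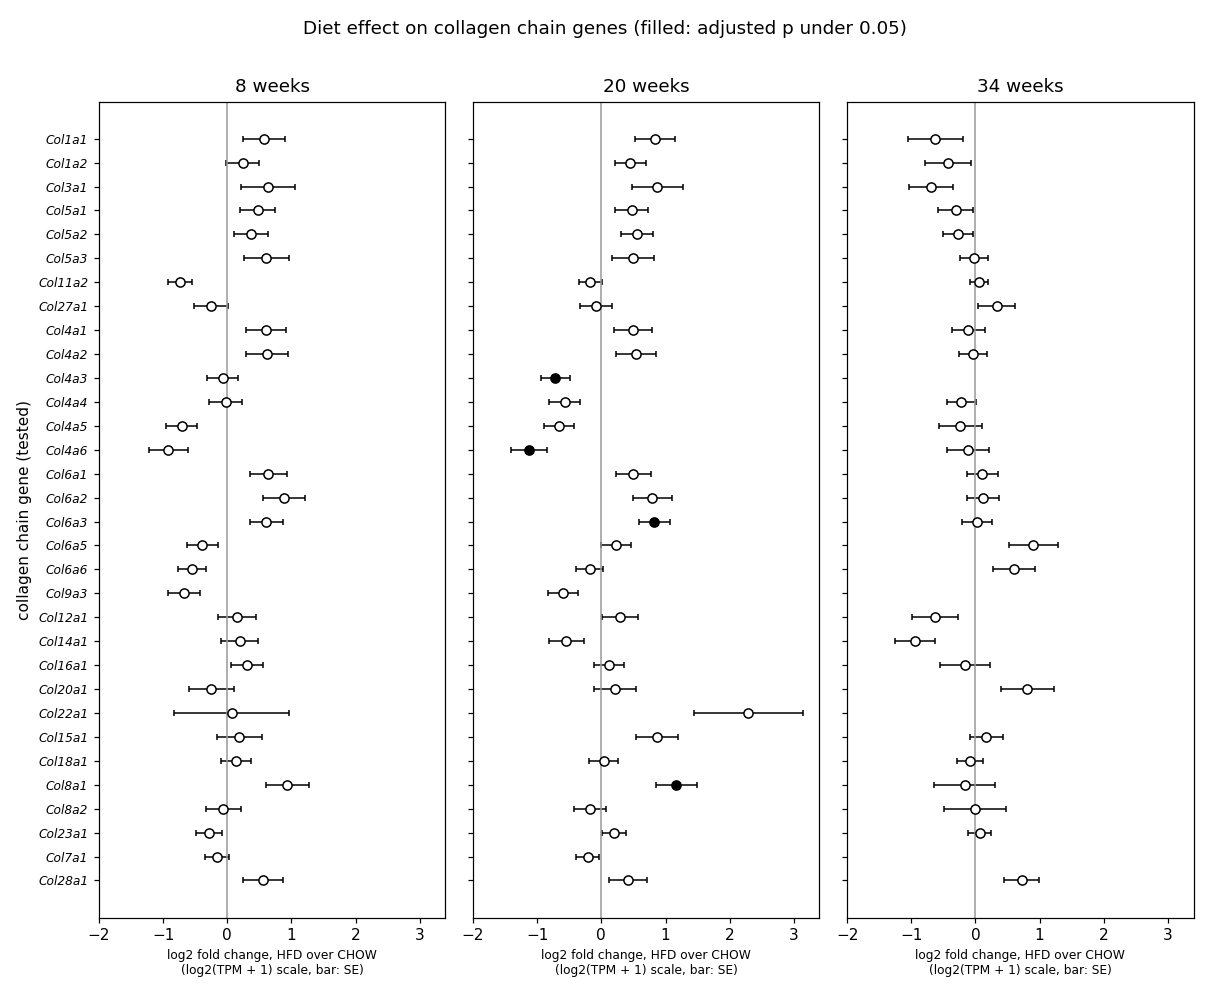
Log2 fold change of HFD over CHOW (horizontal axis, log2(TPM + 1) scale, bars are standard errors) for the tested chains (vertical axis, ordered by class) at 8, 20 and 34 weeks, with filled points for an adjusted p under 0.05 in limma. Filled points occur at 20 weeks alone, for Col4a3, Col4a6, Col6a3 and Col8a1, and Col1a1, Col1a2, Col3a1 and Col5a2 lie right of 0 at 8 and 20 weeks and left of it at 34 weeks.

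Col6a3 encodes the longest of the classical type VI chains, whose tail is cut off as endotrophin. The gene (ENSMUSG00000048126.16) lies on the minus strand at chr1:90765923-90843971 (GRCm38). At 20 weeks its TPM was 87.8, 96.7, 87.2, 88.3 and 57.3 on CHOW, and ran from 106 over a median of 155 to 185 on HFD. All 6 HFD libraries lay above all 5 CHOW libraries, which made Col6a3 the 1 chain without overlap at that time, beside 9.19% of all genes. The log2 fold change was 0.82 ± 0.24 (SE) with an adjusted p of 0.0296 in limma. Leaving out any of CHOW replicates 3 to 5 or of HFD replicates 4 and 5 ended the call but kept the direction, with adjusted p-values of at most 0.0933 in limma.

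Col6a1 and Col6a2, which assemble with it, were the most abundant type VI chains. At 20 weeks Col6a1 averaged 320.2 ± 69.0 TPM on CHOW and 457 ± 119.8 TPM on HFD, and Col6a2 averaged 233 ± 57.9 and 408 ± 114 TPM. Neither passed the test (log2 fold changes 0.50 ± 0.27 and 0.80 ± 0.31, adjusted p 0.225 and 0.0833 in limma). The other type VI chains had closer group means. Col6a5 averaged 215 ± 45.7 TPM on CHOW and 256 ± 71.2 TPM on HFD at 20 weeks, Col6a6 43.01 ± 11.03 and 37.6 ± 7.93 TPM, and Col6a4 did not reach a mean of 1 TPM in any group.

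Col8a1 forms the short-chain network of type VIII, found around vessels. The gene (ENSMUSG00000068196.4) lies on the minus strand at chr16:57624258-57754737. Its TPM at 20 weeks was 2.76, 5.59, 4.72, 4.77 and 3.77 on CHOW, and ran from 4.38 over a median of 12.0 to 16.6 on HFD. HFD replicate 3 alone fell among the CHOW libraries. The log2 fold change was 1.17 ± 0.31 with an adjusted p of 0.0186 in limma, and the call held without any single library (adjusted p up to 0.0480). Its level at 8 weeks was 4.97 ± 1.62 TPM on CHOW and 11.2 ± 4.96 TPM on HFD, a difference that did not pass the test (adjusted p 0.3497 in limma).

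Type IV is built from 6 chains, which sit in the genome as 3 pairs with facing starts. Col4a1 and Col4a2 make the common network of most basement membranes, and Col4a3 to Col4a6 make more restricted networks. Col4a1 averaged 465.96 ± 97.5 TPM on CHOW and 677 ± 226 TPM on HFD, and Col4a2 averaged 222 ± 51.9 and 332 ± 109.9 TPM, with adjusted p 0.266 and 0.244 in limma. Col4a6 (ENSMUSG00000031273.16, minus strand, chrX:141165403-141474076) was at 15.7, 8.08, 22.8, 13.6 and 11.5 TPM on CHOW, and ran from 3.72 over a median of 5.87 to 8.45 TPM on HFD. CHOW replicate 2 was the 1 CHOW library inside the HFD range. The log2 fold change was -1.12 ± 0.28 (adjusted p 0.0128 in limma), and the call held without any single library.

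Its neighbour Col4a5 averaged 43.7 ± 13.7 TPM on CHOW and 26.8 ± 6.28 TPM on HFD at 20 weeks (log2 fold change -0.66 ± 0.23, adjusted p 0.0619 in limma). Col4a3 (ENSMUSG00000079465.8, plus strand, chr1:82586921-82722059) was low, with 0.925, 2.74, 1.90, 1.69 and 1.09 TPM on CHOW and 0.261 to 1.008 TPM, with a median of 0.567, on HFD. The highest HFD library lay above the lowest CHOW library. The log2 fold change was -0.72 ± 0.23 (adjusted p 0.0391 in limma), and leaving out any of CHOW replicates 2 to 4 or of HFD replicates 1 to 3 ended the call (adjusted p of at most 0.0900). Col4a4, its partner across the start, averaged 2.27 ± 0.804 TPM on CHOW and 1.19 ± 0.480 TPM on HFD and was not called. At 34 weeks, in the other table, Col4a5 averaged 22.6 ± 11.5 and 17.3 ± 4.38 TPM and Col4a6 6.87 ± 3.19 and 6.00 ± 2.35 TPM.

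Markers of some other cells moved with these differences at 20 weeks, and their part in the results was not tested. All 10 mesothelial genes had lower means on HFD and all 10 were called lower, beside 4.99% of all genes. Their sum was 239.6 to 878 TPM on CHOW and 86.2 to 255 TPM on HFD, with none at 0. At 8 weeks Col4a6 averaged 12.4 ± 3.32 TPM on CHOW and 6.54 ± 3.33 TPM on HFD, which was not called (adjusted p 0.309 in limma). The mesothelial sum at 8 weeks was 226 to 473 TPM on CHOW and 93.4 to 672 TPM on HFD. Of 10 macrophage genes, 9 had higher means on HFD at 20 weeks and 5 were called higher, beside 9.32% of all genes. Their sum was 5277 to 12622 TPM on CHOW and 9463 to 16798 TPM on HFD. Of 12 fibroblast and progenitor genes, 8 had lower means and 2 were called lower. Their sum was 7965 to 10739 TPM on CHOW and 6949 to 13221.5 TPM on HFD. Of 10 endothelial genes, 7 had lower means and 0 were called, with a sum of 1010 to 1404 TPM on CHOW and 854 to 1710 TPM on HFD. Of 10 pericyte and smooth muscle genes, 6 had lower means and 0 were called. Their sum was 213 to 277 TPM on CHOW and 127 to 357 TPM on HFD. All 6 erythroid genes had lower means, 5 of them called, with a sum of 27334 to 130029 TPM on CHOW and 12622 to 30449.5 TPM on HFD. All 10 germ cell genes had higher means, 1 of them called, with a sum of 26.9 to 292 TPM on CHOW and 46.8 to 13316 TPM on HFD. Of 10 adipocyte genes, 8 had lower means, with 6 called lower and 1 called higher. Lpl, which macrophages also make, had means of 471 TPM on CHOW and 1664 TPM on HFD. A fit that included the mean log2 level of the adipocyte list called 0 chains at 20 weeks and 250 of the 16808 genes. The adipocyte list itself differed between the diets (median log2 difference -0.86), so this fit cannot separate it from diet. A fit with the mean of the fibroblast list called 10 chains, 9 of them higher (Col1a1, Col5a1, Col5a2, Col6a1, Col6a2, Col6a3, Col8a1, Col15a1 and Col22a1) and Col4a6 lower, and called 2094 of the 16808 genes, 1517 of them higher.

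**Figure D3:**
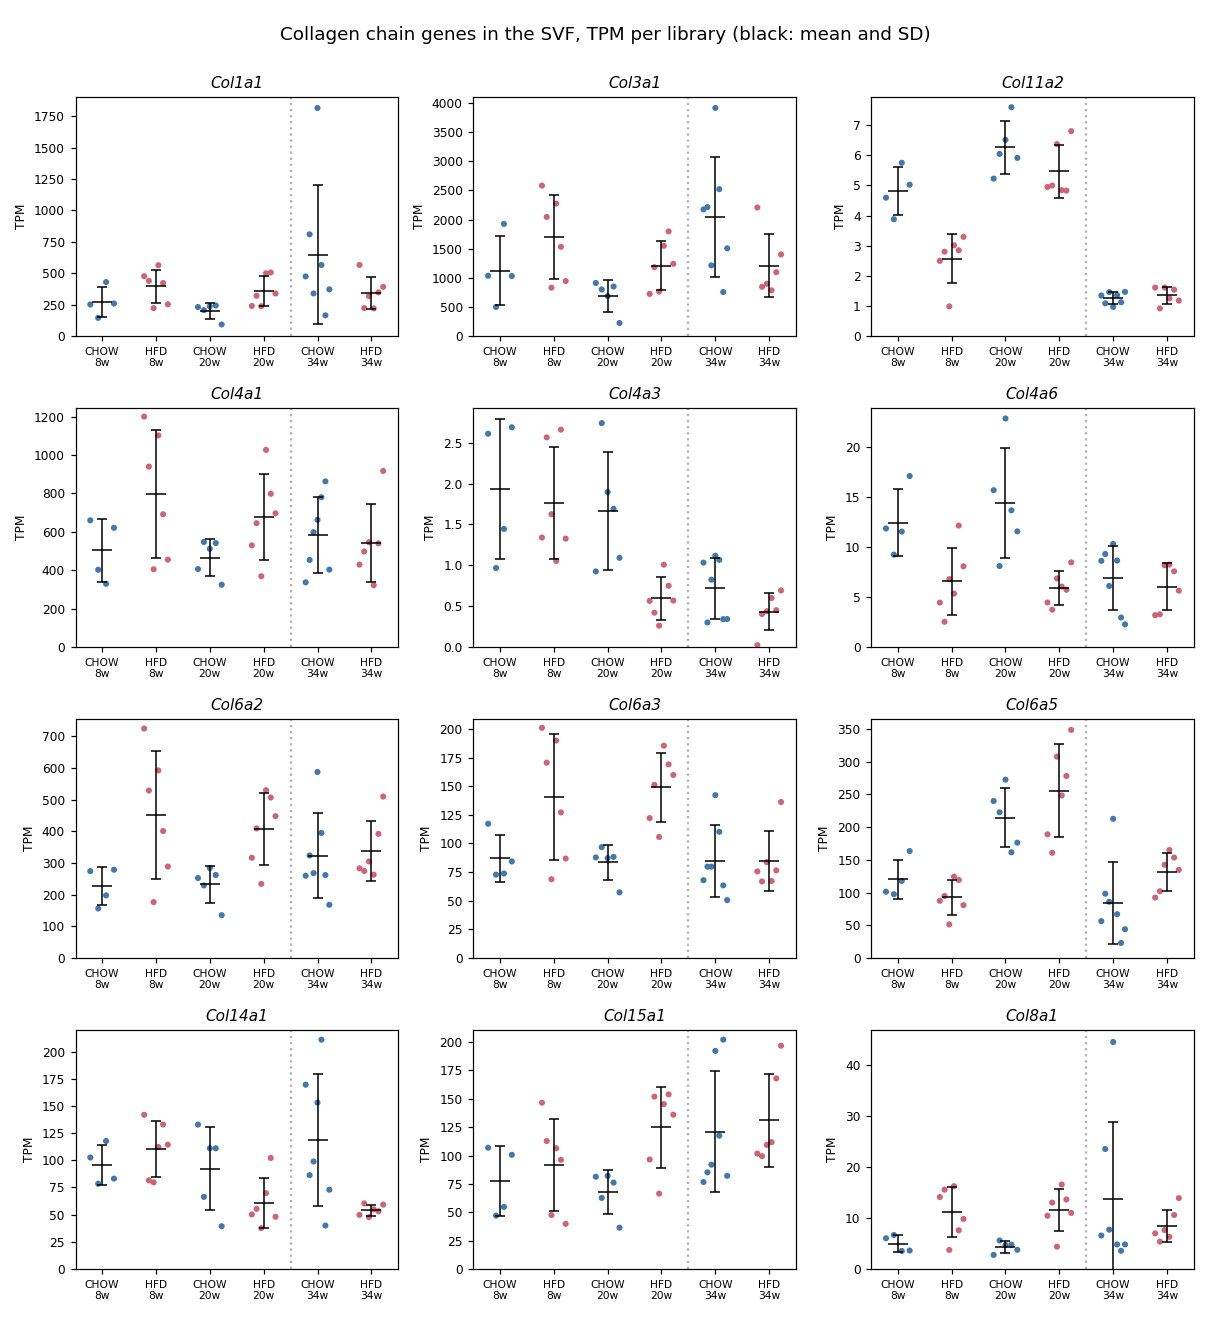
TPM (vertical axis, linear and different for each panel) of 12 chains in every library of the 6 groups (horizontal axis, blue CHOW, red HFD), with the mean and SD in black and a dotted line between the 2 tables. The lower end of a bar that would pass below 0, as for Col8a1 on CHOW at 34 weeks, is cut at the axis. Col6a3 at 20 weeks has all HFD points above all CHOW points, and CHOW 34 week replicate 4 is the high point of Col1a1 at 1816 TPM.

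The upstream sequences of Col6a3, Col8a1 and Col4a6 are given because these chains were called at 20 weeks and no annotated exon lies in their windows. They are the 250 bases before the start of each gene (RefSeq, GRCm38.p6, read along the gene's strand), and capitals mark GGGCGG on either strand, the GC box. They lie at chr1:90843972-90844221, chr16:57754738-57754987 and chrX:141474077-141474326.
Col6a3: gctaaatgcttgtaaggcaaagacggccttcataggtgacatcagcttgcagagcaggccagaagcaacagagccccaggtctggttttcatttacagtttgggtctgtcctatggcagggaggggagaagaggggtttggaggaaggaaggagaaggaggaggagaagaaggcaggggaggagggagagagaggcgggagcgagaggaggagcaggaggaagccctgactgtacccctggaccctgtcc
Col8a1: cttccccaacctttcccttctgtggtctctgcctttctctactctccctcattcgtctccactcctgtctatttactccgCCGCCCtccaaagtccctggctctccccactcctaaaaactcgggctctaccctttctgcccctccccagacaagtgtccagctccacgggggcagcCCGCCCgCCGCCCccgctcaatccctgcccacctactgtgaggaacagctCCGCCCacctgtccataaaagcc
Col4a6: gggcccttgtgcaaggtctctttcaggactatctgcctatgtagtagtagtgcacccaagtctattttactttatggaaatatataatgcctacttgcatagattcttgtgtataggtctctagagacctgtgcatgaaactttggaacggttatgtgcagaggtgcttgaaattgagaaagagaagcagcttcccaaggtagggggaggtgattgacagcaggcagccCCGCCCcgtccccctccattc
Windows were searched on both strands for 3 motifs, namely the TATA box (searched as TATAAA), the CCAAT box and the GC box. Col6a3 holds none of them, and Col8a1 and Col4a6 hold the GC box. The GC box was present in 21 of the 35 chains with a listed window (60.0%) and in 32.7% of all 32851 windows of the same length. The CCAAT box was present in 34.3% of the chains and 33.8% of all windows, and the TATA box in 14.3% and 12.4%. Each chain was counted by 1 window, the nearest to its gene start, while the other share counted every listed window. The sets are therefore unlike, and some chain windows hold annotated exons.

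Pairs with facing starts are shown because their members had the same sign at 20 weeks, so that sign is no separate result. A link between the starts and the levels was not tested. The starts of Col4a1 (minus strand) and Col4a2 (plus strand) overlap by 22 bases at chr8:11312805-11312826 (GRCm38.p6), those of Col4a3 and Col4a4 lie 71 bases apart on chromosome 1, and those of Col4a5 and Col4a6 lie 1308 bases apart on chromosome X. The overlap of the first pair reads as follows on the plus strand.
Col4a1 and Col4a2: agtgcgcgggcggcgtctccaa
The ratio of Col4a1 to Col4a2 stayed near 2, with group means of 1.96 to 2.11 TPM per TPM and single libraries from 1.80 to 2.41.

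Ratios of chains that share a trimer or a fibril were compared because a ratio within a library does not depend on its scaling. The ratio was tested on the log2 scale with a two-sided exact permutation test over libraries, adjusted over 15 tests (5 ratios at 3 times). Col6a2 to Col6a1 was 0.638 to 0.766 on CHOW and 0.853 to 0.926 on HFD at 20 weeks, without overlap (difference 0.30 on the log2 scale, exact p 0.0043, adjusted 0.0476). At 8 weeks it was 0.726 to 0.831 on CHOW and 0.856 to 0.993 on HFD, again without overlap (difference 0.25, exact p 0.0095, adjusted 0.0476). Both p-values are the smallest these sample sizes allow. At 34 weeks the groups overlapped, with means of 0.903 ± 0.0410 on CHOW and 0.910 ± 0.0676 on HFD (exact p 0.821).

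Col1a1 to Col1a2 at 20 weeks was 0.330 to 0.474 on CHOW and 0.472 to 0.618 on HFD, with the highest CHOW library just above the lowest HFD library (difference 0.39, exact p 0.0087, adjusted 0.0476). Col6a3 to Col6a1 at 20 weeks was 0.221 to 0.323 on CHOW and 0.308 to 0.385 on HFD (difference 0.33, exact p 0.013, adjusted 0.0487). Each of the 4 calls lies close to the threshold and was lost in most fits without 1 library (adjusted p of at most 0.107), where fewer samples also raise the smallest p, while the direction held in all of them. Col1a1 to Col1a2 differed by 0.34 at 8 weeks (exact p 0.0381, adjusted 0.114) and by -0.20 at 34 weeks (exact p 0.0828, adjusted 0.207). Col3a1 to Col1a1 and Col4a1 to Col4a2 were not called at any time.

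**Figure D4:**
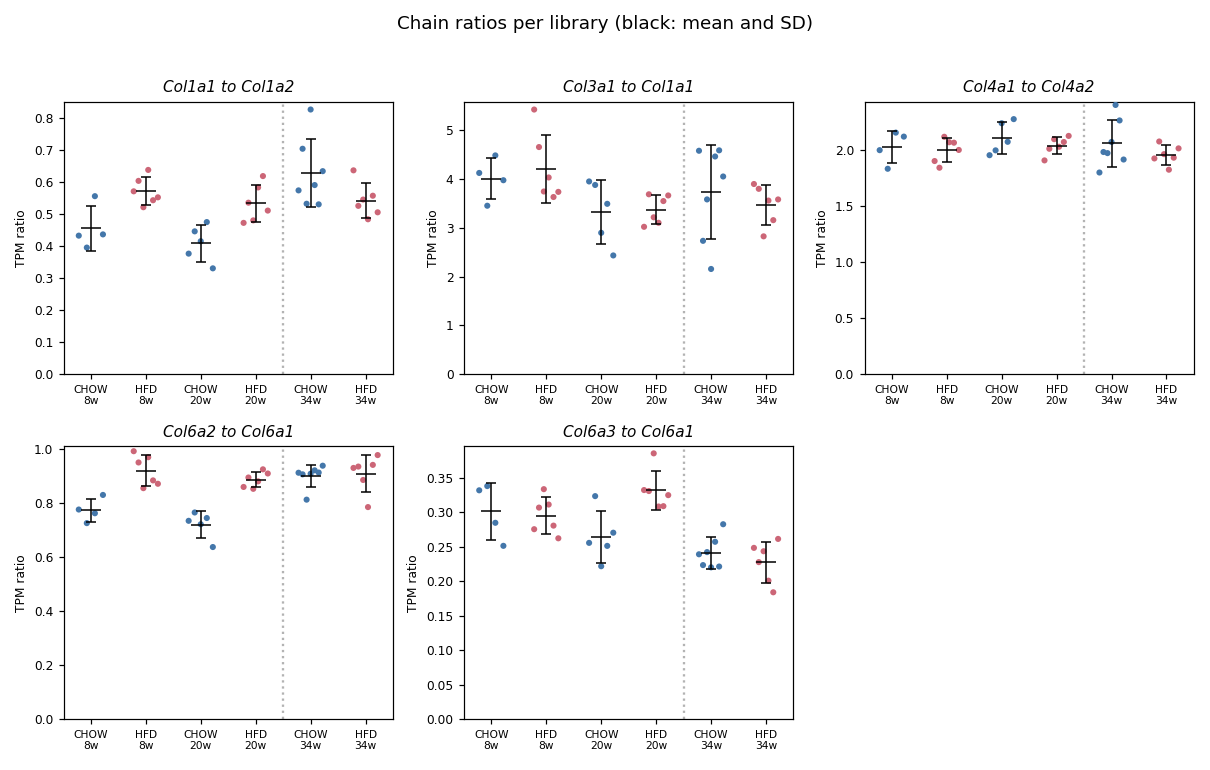
TPM ratio of 2 chains (vertical axis, linear from 0) in every library of the 6 groups (horizontal axis, blue CHOW, red HFD), with the mean and SD in black and a dotted line between the 2 tables. For Col6a2 to Col6a1 the red points lie above the blue ones at 8 weeks (0.856 or more against 0.831 or less) and 20 weeks and overlap with them at 34 weeks, while Col4a1 to Col4a2 stays near 2.

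At 8 weeks limma called 0 of 32 chains, beside 0.0238% of all genes. An unadjusted p under 0.05 was found for 9 chains, beside 1630 of all 16808 genes. Sample quality weights called 4 chains (Col6a2, Col6a3 and Col8a1 higher, Col11a2 lower), beside 209 of all 16808 genes. Col11a2, a minor fibril chain of cartilage, was at 4.60, 3.88, 5.76 and 5.03 TPM on CHOW and ran from 0.983 over a median of 2.82 to 3.29 TPM on HFD. Each HFD value was under the lowest CHOW value, beside 2.11% of all genes without overlap at 8 weeks. The log2 fold change was -0.73 ± 0.19 (adjusted p 0.165 in limma). Col4a1 averaged 503 ± 162 TPM on CHOW and 799 ± 334 TPM on HFD, Col6a2 averaged 227 ± 60.0 and 452 ± 203 TPM, and Col6a3 averaged 87.0 ± 20.8 and 141 ± 55.1 TPM. All 10 pericyte and smooth muscle genes also had higher mean TPM on HFD at 8 weeks, as did 8 of 10 endothelial genes, with 2 lower. On the log2 scale all 10 genes of each list had positive differences, with none called. The endothelial sum was 326 to 1864 TPM on CHOW and 890.2 to 2373 TPM on HFD, and the pericyte and smooth muscle sum was 104 to 367 TPM on CHOW and 140.2 to 658 TPM on HFD, with no gene at 0 throughout a group. Their part in these values was not tested.

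At 34 weeks limma called 0 of 28 chains, beside 0.243% of 13982 genes. An unadjusted p under 0.05 was found for 3 chains, beside 1848 of the 13982 genes. Sample quality weights called 1 chain, beside 294 of the 13982 genes. Col14a1, a FACIT chain that binds fibril surfaces, averaged 119 ± 60.5 TPM on CHOW and 54.2 ± 5.03 TPM on HFD (log2 fold change -0.94 ± 0.31, adjusted p 0.236 in limma). CHOW ran from 40.0 over a median of 98.9 to 211 TPM, and HFD from 47.7 over 54.0 to 60.4 TPM. The HFD libraries sat within the CHOW range. Col6a5 averaged 84.0 ± 62.1 and 132 ± 28.8 TPM (log2 fold change 0.90 ± 0.38, adjusted p 0.334). Col1a1 averaged 649 ± 553 TPM on CHOW, of which replicate 4 held 1816 TPM, and 344 ± 128 TPM on HFD. None of the 28 tested chains was without overlap between the diets, beside 0.937% of all genes tested. Col6a4, under 1 TPM in all 13 libraries of that table and not tested, was higher in every HFD library than in every CHOW library. Of 10 adipocyte genes, 9 had lower means on HFD, with 0 called. Their sum was 991 to 20800.5 TPM on CHOW and 1686 to 2183 TPM on HFD. All 10 germ cell genes had higher means, with 0 called, and sums of 20.6 to 79.2 TPM on CHOW and 49.4 to 5783 TPM on HFD. Without CHOW replicates 5, 6 and 7 together 0 chains and 0 of 13640 genes were called. The part of these cells in the values was not tested.

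Between 8 and 20 weeks on HFD 5 of 32 chains were called, beside 8.78% of all genes. Col11a2, Col6a5 and Col6a6 were higher at 20 weeks, beside 6.12% called higher, and Col4a3 and Col14a1 were lower, beside 2.65% called lower. Col6a5 (ENSMUSG00000091345.8, minus strand, chr9:105856078-105960643), a chain related to Col6a3, ran from 51.4 over a median of 91.1 to 124 TPM at 8 weeks and from 161 over 263 to 349 TPM at 20 weeks. All libraries of 20 weeks lay above all libraries of 8 weeks. The log2 fold change was 1.45 ± 0.22 (adjusted p 0.000206 in limma), and it was called without any single library and in every alternative run. On CHOW no chain was called, beside 0.613% of all genes, and up to 2 chains were called in the alternatives. An unadjusted p under 0.05 was found for 1 chain, beside 2104 of 16808 genes. Col6a5 went from 120.1 ± 30.3 to 215 ± 45.7 TPM on CHOW, with an adjusted p of 0.135 in limma.

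Col6a6, which lies 27917 bases from Col6a5 on the same strand, averaged 22.2 ± 6.49 TPM at 8 weeks and 37.6 ± 7.93 TPM at 20 weeks on HFD (log2 fold change 0.75 ± 0.20, adjusted p 0.0227 in limma). Its call was lost without HFD 8 week replicate 6 and with sample quality weights. Col11a2 averaged 2.57 ± 0.822 and 5.47 ± 0.883 TPM (0.89 ± 0.17, adjusted p 0.00206). Col4a3 averaged 1.76 ± 0.685 and 0.595 ± 0.260 TPM (-0.77 ± 0.22, adjusted p 0.0297). Col14a1 averaged 110.4 ± 25.7 and 60.5 ± 22.9 TPM (-0.90 ± 0.26, adjusted p 0.0378). The call of Col14a1 was lost in 7 of 12 fits without 1 library (without HFD 8 week replicate 1, 5 or 6 or HFD 20 week replicate 1, 2, 3 or 6) and with no filter on low values. The call of Col4a3 was lost in 4 of these 12 fits (without HFD 8 week replicate 2 or 5 or HFD 20 week replicate 2 or 3) and in the fit of the compared groups alone. The count was 3 without HFD 20 week replicate 2 or 3 or HFD 8 week replicate 5 or 6. Over all genes these fits called 1247, 1050, 1026 and 931, beside 1475 with all libraries. Without HFD 20 week replicates 3, 4 and 5 together, Col6a6, Col4a3 and Col14a1 lost the call, and 606 of 16117 genes were called. Markers of other cells moved in the same comparison. Of the macrophage genes 5 of 10 were called higher at 20 weeks, of the adipocyte genes 7 of 10 lower and 1 higher, of the erythroid genes 5 of 6 lower, and of the mesothelial genes 2 of 10 lower, with 8 of 10 at an unadjusted p under 0.05. All 10 germ cell genes had positive differences, with none called and 5 at an unadjusted p under 0.05. The part of these cells in the values of the chains was not tested. With the mean of the adipocyte list as a covariate 1 chain (Col6a5) was called, and 146 of all 16808 genes. That list itself differed between the times, so this fit cannot separate it from time.

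The diet by time interaction, which asks whether the HFD difference changed between 8 and 20 weeks, called 0 of 32 chains, beside 0.297% of all genes. It called 0 chains in every alternative. An unadjusted p under 0.05 was found for 1 chain, beside 2318 of 16808 genes.

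Among the remaining classes, Col15a1 and Col18a1, the multiplexins, are linked to vessel basement membranes, and Col18a1 gives rise to endostatin. Col15a1 averaged 67.8 ± 19.1 TPM on CHOW and 125 ± 35.6 TPM on HFD at 20 weeks (log2 fold change 0.87 ± 0.33, adjusted p 0.0785 in limma), and Col18a1 averaged 75.4 ± 23.1 and 75.7 ± 15.2 TPM. Col16a1, a FACIT chain, averaged 22.8 ± 2.94 and 25.5 ± 7.49 TPM. Col22a1, a FACIT chain of tissue junctions, was at 4.20 TPM or less on CHOW at 20 weeks and reached 41.2 and 81.1 TPM in HFD replicates 4 and 5, which held 3198 and 13316 TPM of germ cell genes. HFD replicate 3 of 20 weeks, also named above for its germ cell RNA, was at 2.68 TPM, and replicate 2 at 5.31 TPM. At 34 weeks Col22a1 was at 44.1 and 27.9 TPM in HFD replicates 1 and 2, which held 5361 and 5783 TPM of germ cell genes. It was at 1.75 TPM or less in the other libraries of that time. The part of germ cell RNA in these values was not tested.

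Other genes of collagen making and binding were read at 20 weeks as lists, beside the 14.3% of all genes called. The shares called were 8.33% of the hydroxylases, 10.0% of the genes of glycosylation, folding and export, 25.0% of those of propeptide removal, 40.0% of the cross-linking genes, 50.0% of the proteoglycans and 44.4% of the receptors. Of 12 tested hydroxylase genes 1 was called, Plod1, which modifies collagen lysines, with a mean of 72.3 TPM on CHOW and 111 TPM on HFD. Of 10 genes of glycosylation, folding and export 1 was called, Colgalt1, at 77.3 and 134 TPM. Of 8 genes of propeptide removal Pcolce, which speeds the trimming of procollagen, was higher (118 and 224 TPM) and Adamts3 lower (2.37 and 1.08 TPM). Of 5 cross-linking genes Lox (111 and 74.8 TPM) and Loxl4 (31.3 and 14.4 TPM) were lower. Of 10 fibril-binding proteoglycans 2 were higher and 3 lower, among them Bgn (353 and 703 TPM), Lum (203 and 378 TPM) and Fmod (74.3 and 23.2 TPM). Of 9 collagen receptors 2 were higher, Lair1, an inhibitory receptor of immune cells (22.3 and 66.3 TPM), and Mrc2, which takes up collagen fragments (20.3 and 46.9 TPM), and 2 were lower, among them Ddr1 (34.9 and 15.2 TPM). At 8 and 34 weeks none of these lists had a called gene, beside 0.0238% and 0.243% of all genes, so the counts of 0 do not set these lists apart.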

How the data were processed

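TPM per gene is the unit of the values that the authors deposited. Reads were checked with FastQC and MultiQC, trimmed with Trimmomatic and quantified with Salmon against gencode M10 protein-coding and long non-coding transcripts, then summed to genes (mm10). For the versions of these tools no source used here gives a number. The authors ran DESeq2 on counts, which TPM does not allow. There are 2 tables, of 21 and 13 libraries, and each library sums to 1000000 TPM.

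Gene IDs were matched to symbols and positions in gencode M21 (GRCm38, counted from 1), and 31791 of 32098 matched. Of the 44 collagen chains, 31 carried the same ID version. Groups came from the sample titles. TPM was transformed to log2(TPM + 1), a scale that understates the change of low genes. Tests used limma 3.58.1 in R 4.3.3 (1 mean per group, eBayes with trend, two-sided), with 1 fit for the 21 libraries and another for the 13. Chain ratios were tested with exact permutations in scipy 1.17.1. The scripts were tested on simulated data. Errors are SD between libraries for TPM and SE for fold changes.

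The members and lists were chosen with earlier results of these data known. Named chains are the most abundant of each class (4 each of the fibrillar, basement membrane and type VI chains, 6 of the rest), those called in any comparison and those without overlap between diets at a mean of 1 TPM or more, 21 in all. Of each pathway list up to 3 called genes with the largest fold change at 20 weeks are named, with any called at 8 or 34 weeks. Of the named chains' diet fold changes, 27 that were not called and were under 0.4 in size are not given, a limit set after the values were seen. Of these, 16 changed sign under some alternative or without some library, and none was called in any. Sequences are from RefSeq, and 35 of the 44 chains had a promoter window. Alternatives were another pseudocount, filters, scalings, quality weights, covariates, a replicate block and leaving out libraries.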

Additional observations from a re-analysis of the deposited data

Results flagged for a closer look

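Each value here stood apart from the rest of its own group by Dixon's test at 95%, which chance passes in about 1 in 20 groups, and 156 groups were looked at. CHOW 34 week replicate 4 was the highest of its group for Col1a1 (1816 TPM, the next at 809.7 TPM), Col5a2 (282 TPM), Col6a5 (213 TPM) and Col22a1 (1.75 TPM). CHOW 20 week replicate 5 held 130029 TPM of erythroid genes. It was the lowest of its group for Col1a1 (91.6 TPM, the next at 206 TPM) and Col6a3 (57.3 TPM, the next at 87.2 TPM). HFD 34 week replicate 6 was the highest for Col4a2 (455 TPM) and Col6a3 (136 TPM). HFD 8 week replicate 3, the library with much seminal vesicle RNA, was the lowest for Col11a2 (0.983 TPM). The part of erythroid or seminal vesicle RNA in these values was not tested. Col22a1 was also highest in HFD 8 week replicate 4 (9.38 TPM) and CHOW 20 week replicate 1 (4.20 TPM). Of the ratios, Col6a2 to Col6a1 was lowest in CHOW 34 week replicate 3 (0.813), and Col6a3 to Col6a1 was highest in HFD 20 week replicate 3 (0.385).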

How the results depend on the processing

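The 4 chains called between diets at 20 weeks became 2 with no filter on low values (Col8a1 and Col4a6), 8 with median-ratio scaling (5 higher), 9 with quantile normalization (4 higher), 8 with sample quality weights (2 higher), 10 with the fibroblast score as covariate, 0 with the adipocyte score as covariate and 1 without HFD replicates 3, 4 and 5, and 2 to 6 without a single library. Over all genes the 2405 calls became 1732 with no filter, 3613 with median-ratio scaling, 3502 with quantile normalization and 5092 with sample quality weights. They became 2094 with the fibroblast score and 250 with the adipocyte score, whose genes themselves differed by diet. Without HFD replicates 3, 4 and 5 they were 958, and without a single library 1255 to 3095. Sample quality weights called 4 chains at 8 weeks, 1 at 34 weeks and 2 between 8 and 20 weeks on CHOW, where median-ratio scaling called 1. Over all genes these weights called 209, 294 and 1659, beside 4, 34 and 103 without them. Median-ratio scaling called 433 of all 16808 genes on CHOW. Between 8 and 20 weeks on HFD the 5 calls became 1 (Col6a5) with the adipocyte score, 2 without HFD 20 week replicates 3, 4 and 5, and 3 to 5 without a single library. Over all genes 1475 calls became 146, 606 and 931 to 1820 in these fits. The labels do not say whether the replicate numbers pair the libraries. In a replicate block 7 chains were called at 20 weeks (4 higher) and 7 between 8 and 20 weeks on HFD. The block called 3597 and 1966 of all 16808 genes in these comparisons. Same-numbered libraries correlated at -0.105 to 0.214 over 15 pairs, with 6 above 0.1 and 4 correlating best with their own number. With so few libraries per group this does not settle whether they are paired. The causes were not tested.

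As a difference of medians, 4 ratio calls were lost (adjusted p 0.107, exact permutation): Col6a2 to Col6a1 at 8 weeks (0.25) and 20 weeks (0.27), Col1a1 to Col1a2 at 20 weeks (0.33) and Col6a3 to Col6a1 at 20 weeks (0.36). Col3a1 to Col1a1, not called, changed sign to -0.0596 at 8 weeks and -0.0478 at 20 weeks. Without a single library, Col6a2 to Col6a1 ran from 0.22 to 0.28 at 8 weeks and from 0.26 to 0.32 at 20 weeks, Col1a1 to Col1a2 from 0.32 to 0.45 at 20 weeks and Col6a3 to Col6a1 from 0.27 to 0.41 at 20 weeks. Ratios that were not called crossed 0: Col6a3 to Col6a1 (-0.11 to 0.0325), Col3a1 to Col1a1 (-0.0175 to 0.12) and Col4a1 to Col4a2 (-0.0657 to 0.0123) at 8 weeks, Col3a1 to Col1a1 (-0.0696 to 0.11) at 20 weeks and Col6a2 to Col6a1 (-0.0153 to 0.0512) at 34 weeks. No depth can be read from TPM, so what depth limits is unknown.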
